A study of Canis lupus familiaris with 186 samples.

Results

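Among dogs with osteosarcoma and both a relapse and a death listed, those that died soon after relapse were compared with those that lived on for months. The RNA was that of the primary tumor, taken before any treatment. Relapse here means a listed disease-free interval (DFI) event, and the listing does not give its kind. A dog was included when both a DFI event and a death were listed for it. The survival after relapse was the overall survival in days minus the DFI in days. The short group had an interval of 30 days or less and the long group one of 120 days or more. Of the 186 dogs of the series, 119 had both events, and 67 of these fell into the groups, 46 short and 21 long. The other 52 dogs with both events lay between the groups and served as a separate set of dogs.

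All dogs were privately owned pets with appendicular osteosarcoma, a bone tumor of the limbs, and no macroscopic metastasis at diagnosis. They were enrolled in the trial COTC021 or COTC022. All had amputation of the limb, then carboplatin alone or carboplatin with rapamycin, in arms of equal size per the paper. Breed, age and sex varied from dog to dog as in any clinical trial population, and each dog contributed 1 tumor library. The labels give the trial of each dog and not its arm, and how far the trials match the arms was not examined. A difference by trial therefore cannot be told apart from one by arm. The listing does not say what kind of event ended the DFI.

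Osteosarcoma arises from bone-forming mesenchymal cells and spreads early, above all to the lung. Relapse after amputation is mostly the outgrowth of cells that had left the limb before surgery, so the interval from relapse to death covers growth at distant sites, further treatment and, in dogs, the owner's decision on euthanasia. The primary tumor is a mixture of malignant osteoblast-like cells, osteoclasts, fibroblasts, vessels and immune cells, and a bulk profile measures them together.

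In the short group the interval had a median of 5 days and ran from 0 to 30 days, and relapse and death were listed on the same day in 15 of its 46 dogs. In the long group the median was 202 days, with a range of 124 to 472 days. The dogs between had a median of 60.5 days and a range of 35 to 118 days. At the lower limit, 10 short dogs lay within 10 days of it on one side and 9 dogs between the groups on the other, so the edge of the short group was well filled. At the upper limit, 3 dogs between the groups and 1 long dog lay within 10 days.

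**Figure D1:**
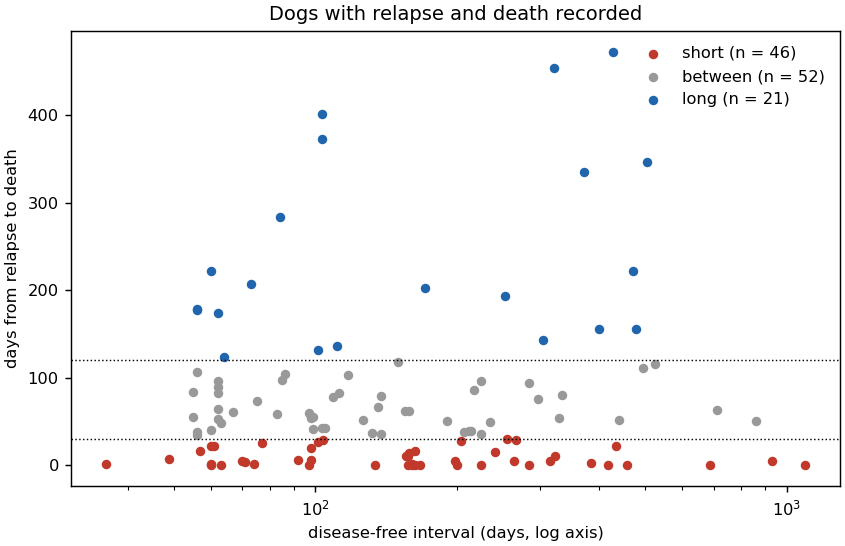
Each point is 1 of the 119 dogs with relapse and death listed, placed by its DFI in days (horizontal log axis) and its days from relapse to death (vertical axis), in red for short, grey for between and blue for long, with dotted lines at 30 and 120 days. Short dogs spread over a DFI of 36 to 1091 days and long dogs over one of 56 to 504 days, and 15 short dogs lie at 0 days.

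The DFI had a median of 159 days in the short, 114.5 days in the between and 111 days in the long dogs. A two-sided permutation test of mean log2 DFI detected no difference between short and long dogs (p = 0.949). The interval is counted from the end of the DFI, so this value is only a description. Tests of trial, name style and depth detected no difference between the groups. COTC021 supplied 26 of 46 short and 13 of 21 long dogs (two-sided Fisher's exact test, p = 0.792). The columns of the table were named in a pair of styles, with a double or a single separator before the last word, and the double style marked 16 of 46 short and 7 of 21 long dogs (Fisher's exact test, p = 1). Total counts ran from 7038011 to 27420867 in short and from 7839671 to 21588185 in long dogs, and mean log2 totals did not separate the groups (two-sided permutation test, p = 0.730).

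The tissue carried its defining markers. RUNX2, the master transcription factor of the osteoblast lineage, was read at 30.4 to 1053 CPM, a count scaled to the size of its library, over the 67 dogs. COL1A1, the main chain of bone collagen, ran from 1569 to 112270 CPM and alkaline phosphatase (ALPL) from 1.62 to 3873 CPM. The late osteoblast factor SP7 was as low as 0.0884 CPM in 1 dog, and the matrix protein gene IBSP was at 0 in 1 dog.

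No gene passed the test between long and short survivors. Of 13422 genes tested with limma-voom, with trial and name style as terms, 0 passed an adjusted p of 0.05 (0% of genes tested), and the smallest adjusted p was 0.712, for PDE4DIPP2. At an unadjusted p under 0.05 the comparison held 281 genes with a higher level in long dogs (2.09% of genes tested) and 321 with a lower level (2.39%), together 602 or 4.49%. The edgeR quasi-likelihood test also called 0 genes, with 918 at an unadjusted p under 0.05, and DESeq2 called 0, with 1022. In the same fit the name style did separate genes, with 102 past an adjusted p of 0.05, and trial did for 1 gene.

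**Figure D2:**
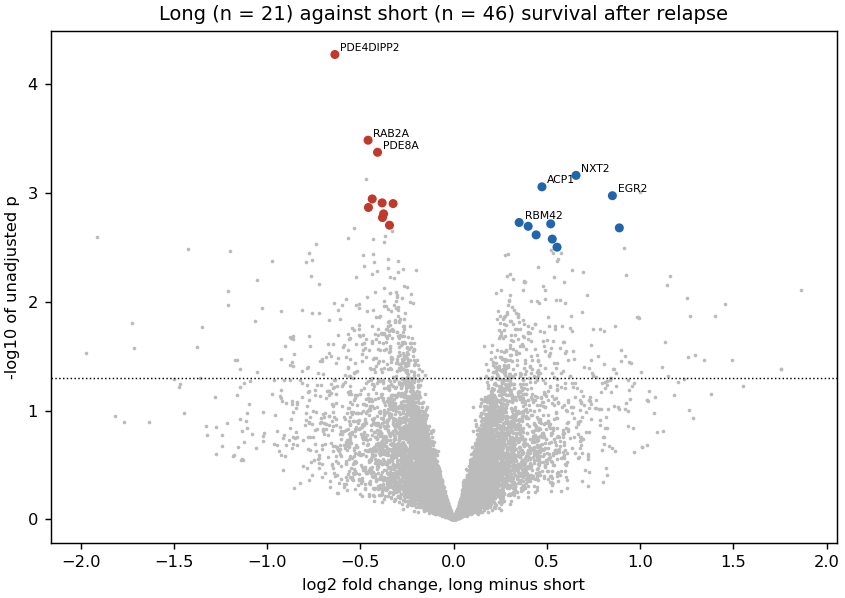
Each point is 1 of 13422 genes, placed by its log2 fold change, long minus short (horizontal axis), and by −log10 of its unadjusted limma-voom p (vertical axis), with a dotted line at 0.05. The 10 leading genes in each direction are coloured, blue for higher and red for lower in long dogs, and none passed the adjusted threshold.

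How large a difference the 67 dogs could have hidden is given by the 95% confidence intervals of the fold changes. At the median gene the limits lay 0.32 on the log2 scale to either side of the estimate. For 8899 genes (66.3%) the whole interval lay within a 1.5-fold difference in either direction, for 11767 (87.7%) within 2-fold and for 12983 (96.7%) within 3-fold. A 3-fold difference therefore remained within the interval for 439 genes, 181 of them upward and 268 downward, some in both directions. The median log2 fold change over all genes was near zero, at -0.0033, and 6609 estimates were above 0 against 6813 below.

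The genes named next are those with the smallest unadjusted p in each direction among genes with the same sign in both trials. None passed, so their values describe how far the closest candidates went. In the direction of higher level in long dogs these 10 were NXT2, ACP1, EGR2, RBM42, PLD3, ALAD, IQUB, ANKRD44, PASK and HMGB2, with log2 fold changes from 0.35 to 0.89 and unadjusted p from 0.000685 to 0.00313, each with an adjusted p of 0.993.

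EGR2, an immediate early transcription factor induced by growth factor and antigen receptor signals (chromosome 4, 15433193 to 15537238), was read at 0.781, 2.85 and 25.6 CPM (lowest, median and highest) in short dogs and at 1.63, 4.82 and 17.2 CPM in long dogs. The ranges overlapped, but 20 of 21 long dogs were above the short median. Its log2 fold change was 0.85 (SE 0.25, 95% interval 0.36 to 1.35, unadjusted limma-voom p = 0.00105).

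NXT2, a nuclear mRNA export cofactor on the X chromosome (83437840 to 83444750), had the smallest p of the 10. It ran from 10.3 to 123 CPM with a median of 18.5 in short dogs and from 15.7 to 140 CPM with a median of 23.5 in long dogs. Long dogs above the short median numbered 17, and the fitted difference was 0.66 (SE 0.18) on the log2 scale. Single dogs of both groups stood far above their medians.

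HMGB2, a chromatin protein abundant in dividing cells (chromosome 25), had medians of 92.9 CPM in short and 161 CPM in long dogs, within ranges of 51.9 to 389 and 56.3 to 501 CPM. It was above the short median in 19 of 21 long dogs, with a log2 fold change of 0.55 (SE 0.18). PLD3, a lysosomal nuclease (chromosome 1), had medians of 281 CPM in short and 426 CPM in long dogs, ranges of 106 to 607 and 135 to 1110 CPM, and a log2 fold change of 0.52 (SE 0.16), and 3 of 46 short dogs exceeded the long median. ALAD, an enzyme of heme synthesis, differed by 0.40 (SE 0.12), with 18 of 21 long dogs above the short median. For ACP1, a low molecular weight tyrosine phosphatase, and RBM42, an RNA-binding protein, the differences were 0.47 and 0.35, and for PASK, a metabolic sensor kinase, 0.53.

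In the opposite direction the 10 leading genes were PDE4DIPP2, RAB2A, PDE8A, PCMTD1, MAK16, GGPS1, TRAM1, RB1CC1, ENOPH1 and ING2. Their log2 fold changes lay between -0.64 and -0.32, with unadjusted p from 5.3e-05 to 0.00197.

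PDE4DIPP2 (chromosome 17, 57722757 to 57947007) had medians of 153 CPM in short and 101 CPM in long dogs, within ranges of 82.1 to 617 and 42.1 to 238 CPM. Only 2 of 21 long dogs were above the short median and 41 of 46 short dogs were above the long median. The log2 fold change was -0.64 (SE 0.15, 95% interval -0.93 to -0.34). Its name marks it as a copy of PDE4DIP, and reads shared with a near-identical gene could have been divided between the copies, so its level is uncertain.

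RAB2A, a small GTPase of transport between endoplasmic reticulum and Golgi (chromosome 29), had medians of 55.5 and 38.1 CPM in short and long dogs, with ranges of 26.2 to 79.4 and 27.2 to 74.9 CPM. The ranges almost coincided, yet 3 of 21 long dogs were above the short median, and the log2 fold change was -0.46 (SE 0.12). PDE8A, a phosphodiesterase that degrades cyclic AMP (chromosome 3), had medians of 67.1 and 44.0 CPM, with 6 long dogs above the short median and a log2 fold change of -0.41 (SE 0.11). TRAM1, part of the protein translocation site of the endoplasmic reticulum, differed by -0.46 and RB1CC1, a scaffold of the autophagy initiation complex, by -0.38. GGPS1, which makes geranylgeranyl diphosphate for protein prenylation, differed by -0.32 (SE 0.096), and ING2, a reader of histone methylation, by -0.34 (SE 0.11).

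**Figure D3:**
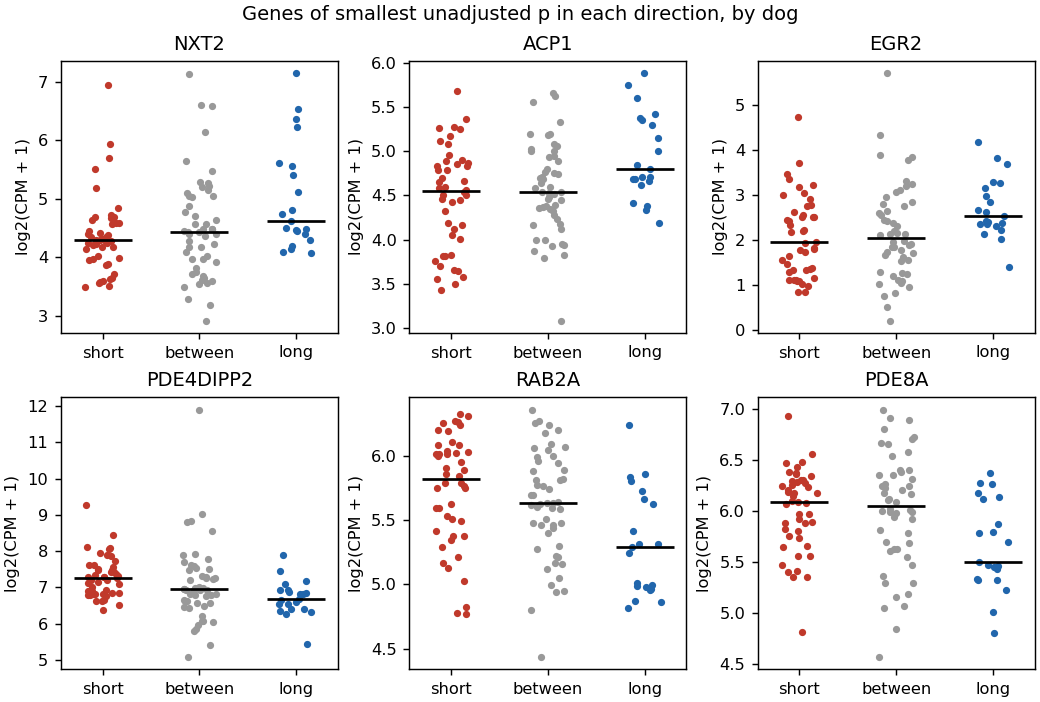
Log2(CPM + 1) by dog for the 3 genes of smallest unadjusted p in each direction, in 46 short, 52 between and 21 long dogs, with a horizontal bar at each group's median. The groups overlap in every panel, and the between dogs are not always placed between the medians of the other groups.

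Most leading genes on the lower side lay on a few chromosomes. RAB2A, PCMTD1, TRAM1 and RB1CC1 lie on chromosome 29, MAK16 and ING2 on chromosome 16 and ENOPH1 on chromosome 32, so that 7 of the 10 came from chromosomes that hold 541 of the genes tested (4.03%). None of the 10 leading higher genes lay on these or on chromosome 38. The chromosomes were looked at because of this, after the genes had been seen, and the following values are a description.

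Over the 39 chromosomes with at least 100 genes tested, the lowest median log2 fold changes were -0.16 on chromosome 38, -0.15 on chromosome 16, -0.13 on chromosome 29 and -0.13 on chromosome 32. Estimates were below 0 for 97 of 126 genes on chromosome 38 (77.0%), 205 of 254 on chromosome 16 (80.7%), 105 of 133 on chromosome 29 (78.9%) and 120 of 154 on chromosome 32 (77.9%), against 50.8% of all genes. On the other 35 chromosomes the medians ran from -0.086 to 0.10 and the shares below 0 from 23.3% to 75.4%. A share far from 50.8% was therefore not particular to these 4. Shares of genes with an unadjusted p under 0.05 were 14.3% on chromosome 29, 13.0% on chromosome 16, 11.0% on chromosome 32 and 9.52% on chromosome 38, beside the 4.49% of all genes.

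These shifts were small and the dogs overlapped widely. The mean log2 CPM of the chromosome 29 genes, relative to their mean over the 67 dogs, ran from -0.67 to 1.04 with a median of 0.071 in short dogs and from -0.53 to 0.61 with a median of -0.10 in long dogs, and 16 of 21 long dogs were below the short median. For chromosome 16 the same measure had medians of 0.022 and -0.085, and 15 of 21 long dogs were below the short median. Counts as high, 16 on chromosome 28 and 15 on chromosome 33, came with median log2 fold changes of only -0.048 and -0.014. Other chromosomes had lower counts, such as 5 on chromosome 12. The 4 chromosomes of lowest median were picked from these 67 dogs, so signs within their trials and name styles are not a separate check. All 4 medians of fold changes kept a negative sign within each trial and within each name style. That of chromosome 16 turned to 0.012 when the groups were widened to 60 days or less and 90 days or more. In the dogs between the groups the slope of expression on the interval had the other sign, with median slopes of 0.17 on chromosome 38, 0.22 on chromosome 16, 0.057 on chromosome 29 and 0.027 on chromosome 32. Genes of 1 chromosome are not independent of each other, and DNA copy number was not analysed here.

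Estimates beyond 3-fold were few and came from genes with a wide spread. There were 10, of which 3 were higher and 7 lower in long dogs, and none had an adjusted p under 0.05. They were chosen after their values were seen, by size alone. PAX1, a paired box factor of the axial skeleton and shoulder girdle, had medians of 8.08 CPM in short and 2.91 CPM in long dogs, a log2 fold change of -1.91 (SE 0.61, unadjusted p = 0.00252) and 3 of 21 long dogs above the short median. EMX2, a homeobox factor that also patterns the shoulder blade, had medians of 2.84 and 0.995 CPM and a log2 fold change of -1.73 (SE 0.70). The matrix protein gene THBS2 differed by -1.72 and the imprinted RNA H19 by -1.82, with standard errors of 0.76 and 1.12.

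Upward, the acute phase protein gene SAA1 had medians of 2.47 CPM in short and 13.9 CPM in long dogs and a log2 fold change of 1.76 (SE 0.84). Its neighbour LOC119877366 carried the same count in 185 of 186 dogs, so the pair cannot be read as separate measurements. The tumor suppressor gene CDKN2A, often lost in osteosarcoma, was at 0 in at least 1 dog of each group and reached 50.3 CPM in short and 122 CPM in long dogs. Its medians were close, at 1.20 and 1.77 CPM, and the log2 fold change was 1.86 (SE 0.68, unadjusted p = 0.00783). This estimate was 0.47 within COTC021 and 3.16 within COTC022, and the test of that difference gave an unadjusted p of 0.0445 and an adjusted p of 0.716.

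The dogs between the groups offered a comparison that shared no dog with the contrast of long with short. In these 52 dogs the slope of log2 expression per doubling of the interval was not different from 0 for any gene at an adjusted p of 0.05 (0% of genes tested, smallest adjusted p 0.476, for DNAJB6), and 1019 genes (7.59%) had an unadjusted p under 0.05. Across the 13422 genes, the slope and the long-short fold change had r = -0.040 and rho = -0.028, and 48.8% of genes had the same sign. Genes are not independent replicates, so this is given without a test.

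Of the 20 leading genes, 11 had a slope of the same sign in the dogs between, 7 of the 10 higher and 4 of the 10 lower. EGR2 had the steepest of these, at 0.84 per doubling (SE 0.36, unadjusted p = 0.0231, adjusted p = 0.630). MAK16, a ribosome assembly factor, and ING2 had slopes of 0.42 (SE 0.14, unadjusted p = 0.00369) and 0.31 (SE 0.13, unadjusted p = 0.0170), opposite to their lower level in long dogs. No slope of the 20 passed the adjusted threshold.

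**Figure D4:**
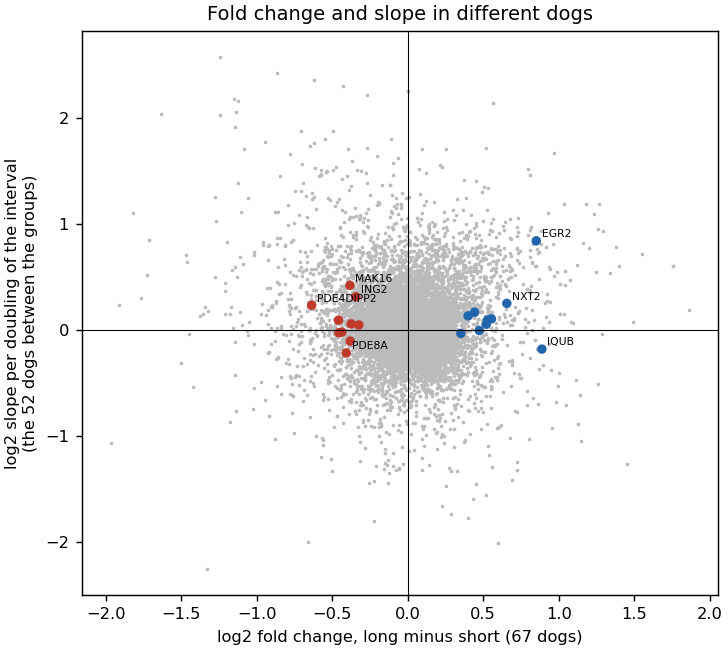
Each point is 1 of 13422 genes, placed by its log2 fold change, long minus short, in 67 dogs (horizontal axis) and by its log2 slope per doubling of the interval in the 52 dogs between (vertical axis), with the 20 leading genes coloured and those with slopes beyond 0.17 in size named. Both estimates lie on the same side of 0 for 48.8% of genes, and EGR2 stands at upper right with both estimates above 0.8.

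A slope over all 119 dogs, which shares the short and long dogs with the first contrast, also called 0 genes (0% of genes tested) by limma-voom, with 608 (4.53%) at an unadjusted p under 0.05 and a smallest adjusted p of 0.966, for the homeobox gene HOXB8. The hazard of death after relapse was fitted by Cox regression in all 143 relapsed dogs, 24 of them censored because no death event was listed, for reasons the listing does not give, and called 0 genes (0% of genes tested), with 460 (3.43%) at an unadjusted p under 0.05 and a smallest adjusted p of 0.999. Because these fits contain the same dogs, their values are only set beside the contrast. ENOPH1, an enzyme of methionine salvage, had a hazard ratio of 1.31 per standard deviation of log2 CPM (95% interval 1.09 to 1.57, unadjusted Cox p = 0.00357). For GGPS1 the ratio was 1.29 (1.07 to 1.57), for PDE4DIPP2 1.18 (1.02 to 1.36) and for EGR2 0.857 (0.705 to 1.04).

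The trials and the name styles gave fold changes that had little in common across genes. Between the 39 dogs of COTC021 and the 28 dogs of COTC022 in the contrast, the correlation of fold changes over genes was r = -0.057 (rho = -0.070), and 47.1% of genes had the same sign. Between libraries of the double and the single style it was r = -0.013 (rho = -0.043), with 47.9% of the same sign. The leading genes agree in sign between trials by the rule that chose them. Between name styles 19 of 20 did, the exception being TRAM1, but the same libraries gave the p values that chose the genes. An interaction term with trial called 0 genes by limma-voom (0% of genes tested), with 919 (6.85%) at an unadjusted p under 0.05 and a smallest adjusted p of 0.635, for TRUB2. The interaction with name style called 0 genes (0% of genes tested), with 759 (5.65%) at an unadjusted p under 0.05.

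Lists of markers and pathway genes were then described by their counts and medians, beside a median of -0.0033 over all genes. Over all genes, 6609 of 13422 estimates were above 0. Counts of list members at an unadjusted p under 0.05 stand beside 4.49% of all genes, 2.09% higher and 2.39% lower in long dogs. No member of any list passed an adjusted p of 0.05. In bulk tumor RNA, fewer cells of a type and less RNA per cell cannot be told apart.

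Immune lists had positive medians. All 10 tested members of the T and NK cell list (of 21 listed) had a higher estimate in long dogs and centred on 0.57, and 1 of them, the T cell adhesion receptor CD2, had an unadjusted p under 0.05. CD2 had medians of 6.11 CPM in short and 10.2 CPM in long dogs, within ranges of 0.628 to 79.7 and 1.64 to 144 CPM, and a log2 fold change of 0.76 (SE 0.38). Over the whole list, the mean standardised level ran from -1.14 to 1.77 in short dogs and from -1.11 to 2.37 in long dogs, with medians of -0.25 and -0.10.

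Interferon response genes were above 0 in 20 of 20 tested members (of 24 listed), with a median of 0.45 and 2 at an unadjusted p under 0.05. IDO1, an interferon-induced enzyme that consumes tryptophan, had medians of 0.959 and 2.81 CPM and an estimate of 1.34 (SE 0.62), with 15 of 21 long dogs above the short median.

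Antigen presentation genes were above 0 in 17 of 17 tested members (of 20 listed), with a median of 0.47. TAP2, a subunit of the peptide transporter that loads MHC class I, had medians of 60.1 and 76.3 CPM and an estimate of 0.40 (SE 0.17, unadjusted p = 0.0187). The class II loading factor gene DLA-DMA had an estimate of 0.63 (SE 0.33). Among immune checkpoint genes 7 of 9 tested (of 14 listed) were above 0, with a median of 0.33, and LGALS9, which encodes galectin-9, had medians of 23.6 and 44.5 CPM and an estimate of 0.59 (SE 0.29). The dogs between had median slopes of the same sign, 0.39 for T and NK cells, 0.47 for interferon response, 0.42 for antigen presentation and 0.32 for checkpoints.

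Among myeloid lists, the macrophage list had 10 of 14 members above 0 and a median of 0.25. The median was -0.07 within COTC021 and 0.81 within COTC022, a difference that was not tested for the list. It was 0.0068 with sample quality weights and -0.13 with the GS-1 score as a term. By dog, the mean standardised level of this list did not follow the sign of that median, with medians of -0.050 in short, 0.14 in between and -0.15 in long dogs. The complement genes C1QC and C1QA, made by tissue macrophages, each had an estimate of 0.59, with standard errors of 0.41 and 0.42. Neutrophil markers were above 0 in 5 of 5 tested members (of 9 listed), with a median of 0.45 that turned to -0.45 with long from 180 days and to -0.15 within single-style libraries, and myeloperoxidase (MPO) had an estimate of 0.45 (SE 0.33). Of the B and plasma cell list only 2 of 12 genes were tested, JCHAIN at 0.24 and XBP1 at 0.010.

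The signatures GS-1 and GS-2 were taken by the study from earlier published work, and clusters built on them in these dogs were compared with outcome there, so their direction here is not independent evidence. GS-1 had 25 of 27 members above 0 and a median of 0.37, and 0 members at an unadjusted p under 0.05. Its median was 0.08 within COTC021 and 0.71 within COTC022. It was 0.80 within double-style and 0.021 within single-style libraries, and 0.14 with sample quality weights. GS-2 had 125 of 155 tested members above 0 and a median of 0.34. At an unadjusted p under 0.05 it held 4 members higher and 1 lower, beside 4.49% of all genes. In the dogs between the groups the median slopes were 0.69 for GS-1 and 0.55 for GS-2. The mean standardised level was not ordered by group, and was highest in the between dogs. Its medians in short, between and long dogs were -0.28, 0.036 and -0.18 for GS-1 and -0.23, -0.0033 and -0.095 for GS-2. The MHC class II gene DLA-DQA1 of GS-1 had a slope of 1.06 (unadjusted p = 0.0279) beside a long-short estimate of 0.73 (SE 0.43). CFP, the complement regulator properdin, had an estimate of 0.81 (SE 0.43). CRISPLD2, a secreted protein in GS-2, went the other way, with medians of 210 CPM in short and 62.4 CPM in long dogs and an estimate of -1.38 (SE 0.60).

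Cell cycle genes held the largest number of low p values among the pathway lists. All 22 mitosis and DNA replication genes were above 0, with a median of 0.29, and 6 had an unadjusted p under 0.05. MCM3, a subunit of the replicative helicase, had medians of 104 CPM in short and 150 CPM in long dogs, ranges of 21.9 to 540 and 77.4 to 351 CPM, and an estimate of 0.56 (SE 0.19, unadjusted p = 0.00421). PLK1, the mitotic kinase, had medians of 34.8 and 55.4 CPM and an estimate of 0.57 (SE 0.21). The mean standardised level of the list went down to -2.74 in short, -2.38 in between and -0.78 in long dogs, while the medians were 0.15, 0.34 and 0.28. The 22 confidence intervals lay within 3-fold. In the dogs between the groups the median slope of this list had the opposite sign, at -0.25.

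**Figure D5:**
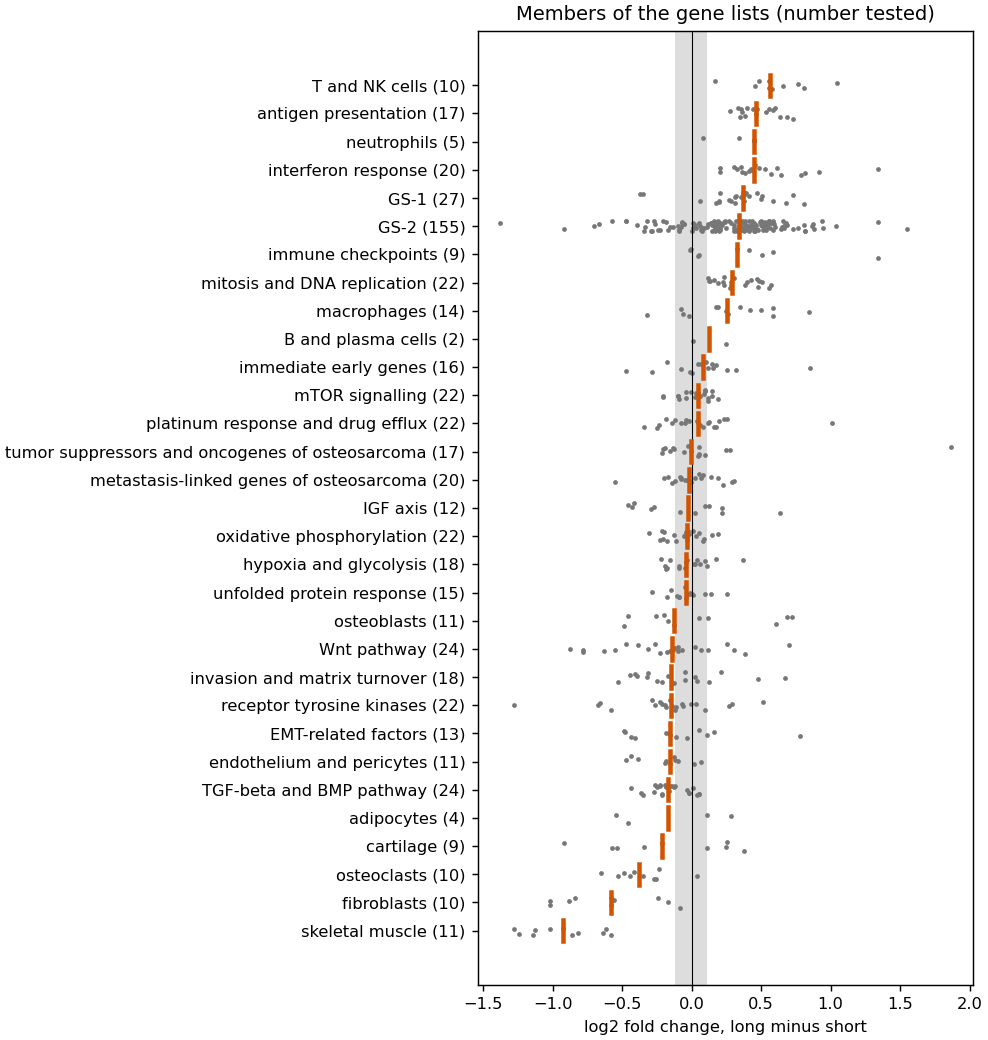
Log2 fold changes, long minus short, of the tested members of each list (grey points, with the number tested in brackets) and their median (orange bar), with the interquartile range of all genes shaded. Medians run from 0.57 for T and NK cells, at the top, to -0.92 for skeletal muscle, at the bottom, and no member passed the adjusted threshold.

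Stromal lists had negative medians. All 10 fibroblast markers were below 0, with a median of -0.58, and 1, FAP (fibroblast activation protein), had an unadjusted p under 0.05. FAP had medians of 135 CPM in short and 96.9 CPM in long dogs, ranges of 14.0 to 439 and 18.5 to 273 CPM, and an estimate of -0.58 (SE 0.26). PDGFRA, a growth factor receptor of mesenchymal cells, had medians of 271 and 269.8 CPM and the same estimate, -0.58 (SE 0.30). Endothelial and pericyte markers were below 0 in 9 of 11, with a median of -0.16. In the dogs between the groups the median slopes had the opposite sign, at 0.026 for fibroblasts and 0.070 for endothelium and pericytes.

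Skeletal muscle genes, which mark muscle carried along with a biopsy, had the lowest median, -0.92, and were below 0 in 11 of 11. The size of that median depended on the fit, with -2.58 by edgeR, -1.26 by DESeq2 and -0.44 with short to 60 and long from 90 days. The muscle protein genes TTN and MYLPF varied widely between dogs, with MYLPF at 0.130 to 1297 CPM in short and 0.423 to 47.9 CPM in long dogs, and no member had an unadjusted p under 0.05. The median slope of this list in the dogs between was 1.47, of the opposite sign. Muscle and fibroblast estimates were below 0 where immune and cell cycle estimates were above it, and the part that tissue makeup had in any of these values was not tested.

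Bone lists were mixed. Osteoclast markers were below 0 in 9 of 10 tested, with a median of -0.38, but the median was -0.94 within COTC021 and 0.45 within COTC022. In the dogs between the groups the median slopes were 0.094 for osteoclast, -0.47 for osteoblast and 0.0025 for cartilage markers. NFATC1, the transcription factor of osteoclast formation, had medians of 66.3 CPM in short and 58.0 CPM in long dogs and an estimate of -0.35 (SE 0.14, unadjusted p = 0.0149). Cathepsin K (CTSK), the protease with which osteoclasts degrade collagen, had an estimate of -1.13 within COTC021 and 0.42 within COTC022. Osteoblast markers were divided, 5 above and 6 below 0, and the collagen genes COL1A2 and COL1A1 had estimates of -0.46 (SE 0.26) and -0.48 (SE 0.32). Cartilage markers had a median of -0.21, with members from -0.92 to 0.38, and the median kept that sign in only 11 of 19 alternatives, with 0.26 under the stricter filter on low counts and 0.36 within single-style libraries. The adipocyte list was small, and of 8 adipocyte markers 4 were tested, 2 on each side of 0. None of the 8 red cell lineage genes passed the filter on low counts.

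Genes linked to tumor spread showed no common direction. Of 20 tested metastasis-linked genes 9 were above and 11 below 0, with a median of -0.02, and 0 had an unadjusted p under 0.05. NT5E, the ecto-enzyme CD73, had medians of 153 and 78.7 CPM and an estimate of -0.55 (SE 0.35). Invasion and matrix turnover genes had 12 of 18 below 0 and a median of -0.15, with the aggrecan-degrading protease gene ADAMTS4 at -0.40 (SE 0.24). Of 13 genes of epithelial-mesenchymal transition 9 were below 0, and SNAI2, a repressor of epithelial genes, had medians of 35.0 and 24.8 CPM and an estimate of -0.48 (SE 0.21, unadjusted p = 0.0276).

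The drugs given in the trials act on DNA and on mTOR, and the lists for them were centred on 0. Among genes of platinum response and drug efflux the median was 0.04, with 12 above and 10 below 0, where ABCG2 has 2 rows. The efflux pump gene ABCB1 had an estimate of 1.01 (SE 0.49), of which 1.67 was seen within COTC021 and -0.0087 within COTC022. The mTOR signalling list had a median of 0.05 with all 22 members between -0.21 and 0.19 and every interval within 3-fold. TSC2, an inhibitor of mTOR, had medians of 56.0 and 70.2 CPM and an estimate of 0.14 (SE 0.098).

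Growth and lineage pathways gave medians between -0.17 and -0.01. Receptor tyrosine kinases were below 0 in 17 of 22 (median -0.15), Wnt genes in 17 of 24 (median -0.14) and TGF-beta and BMP genes in 20 of 24 (median -0.17). AXIN2, a target and inhibitor of Wnt signalling, had medians of 12.7 and 10.2 CPM and an estimate of -0.39 (SE 0.16), and SFRP1, a secreted Wnt antagonist, one of -0.88 (SE 0.41) beside a slope of 1.12 in the dogs between. SMAD4, the shared mediator of TGF-beta signals, had an estimate of -0.21 (SE 0.093). RET, a receptor kinase, had medians of 6.08 and 3.75 CPM and an estimate of -0.66 (SE 0.34). The IGF axis was even, 6 above and 6 below 0, and apart from CDKN2A and MDM2 the 17 osteosarcoma tumor suppressors and oncogenes had unadjusted p values above 0.05. MDM2, which degrades p53, had an estimate of -0.21 (SE 0.10).

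Metabolic and stress lists stayed near 0. The median was -0.04 for hypoxia and glycolysis, -0.04 for oxidative phosphorylation and -0.04 for the unfolded protein response. SDHD, a subunit of respiratory complex II, had an estimate of -0.23 (SE 0.10). Of 16 immediate early genes 11 were above 0 with a median of 0.08, and EGR2 was the 1 with an unadjusted p under 0.05. NR4A2, another immediate early factor, had an estimate of -0.48 (SE 0.31).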

How the data were processed

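RNA of 186 primary tumors was made into stranded mRNA libraries and sequenced in pairs of reads. The authors aligned reads with STAR 2.7.0f and estimated expected counts per gene with RSEM 1.3.1, per the labels and the study's methods, and deposited 1 table of 37952 gene rows on the canine build GSD_1.0. Of its 198 columns 186 were matched to samples by title and 12 were not used. Of the deposited expected counts 3.07% were not whole numbers (tolerance 1e-09), and all were rounded. Events and days came from the study's supplementary listing. Members and gene lists were chosen with earlier results of these data known.

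Genes were filtered with filterByExpr (minimum count 10, minimum proportion 0.5, large n 5) over all 186 libraries, which kept 13422. Counts were scaled by TMM and fitted with limma-voom (limma 3.58.1, edgeR 4.0.16, R 4.3.3) with trial and name style (a double or single separator in the column name) as terms, two-sided, with Benjamini-Hochberg adjustment over all genes. The edgeR quasi-likelihood test and DESeq2 1.42.0 were alternatives. Cox models (survival 3.8.3) used log2 CPM with a prior count of 2, stratified by trial with name style as a term. Permutation tests drew 100000 resamples. Named genes were the 10 of smallest unadjusted p per direction with a symbol and the same sign in both trials, since none passed, and the 2 of smallest p per list, some of which are not reported here. CPM values in the text are levels, and log2 fold changes are long minus short. A mean standardised level is the mean over a list's members of log2 CPM as z-scores. Coordinates and symbols are from RefSeq on UU_Cfam_GSD_1.0. The functions for the limma-voom, edgeR quasi-likelihood and Cox fits were tested on simulated data, and the DESeq2 fit and the other steps were not. Totals ran from 6587634 to 27420867 counts per library, and a dog is the replicate.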

Additional observations from a re-analysis of the deposited data

How the results depend on the processing

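The counts of 0 genes did not move under any alternative: the contrast of long with short called 0 genes in all 19, with 480 to 1299 genes at an unadjusted p under 0.05 and a smallest adjusted p of 0.114 (LOC119874144, within COTC022). The slope over 119 dogs called 0 in all 5 alternatives (497 to 1327, smallest adjusted p 0.257) and the Cox fit 0 in all 3 (457 to 610, smallest adjusted p 0.549). For the 20 leading genes, 378 of 379 recomputed estimates kept their sign. These genes were chosen in the same dogs and by their sign in both trials, so that count was largely set by the choice. In the dogs between the groups 11 of 20 had a slope of the same sign. Sizes of the recomputed estimates held less well than signs, and 42 of the 379 differed from the reported value by over 1.5 times, over 16 genes. With short to 60 and long from 90 days MAK16 was at -0.045 and PDE4DIPP2 at -0.25, with long from 180 days NXT2 was at 0.27 and IQUB at 0.34, and within COTC022 ING2 was at -0.070. DESeq2 left 57 adjusted p values as NA. Chromosome medians on 29, 32 and 38 kept their sign in all 19 alternatives, and that of chromosome 16 in 18, turning to 0.012 with short to 60 and long from 90 days. The alternatives reuse dogs by which these chromosomes were picked, so the kept signs are only a description. No paired analysis was possible because each dog gave 1 library and dog numbers are not shared between groups.

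Of 1091 list gene estimates 1049 kept their sign, and 42 over 21 genes did not. The list genes, those of smallest p per list, were also chosen in the same dogs. The median of a list kept its sign in 11 of 19 alternatives for cartilage, 14 for osteoblasts and adipocytes and 16 for macrophages. The reversed log2 fold changes were as follows, and the cause was not tested. Within COTC022 (20 short, 8 long) they were 0.0059 for PLIN4, 0.33 for TTN, 0.24 for PGK1, 0.42 for CTSK, -0.18 for RECK, -0.0087 for ABCB1, -0.19 for IGFBP5, 0.094 for SDHD and 0.044 for PDIA4. Within COTC021 (26 short, 13 long) they were -0.19 for XBP1 and 0.14 for HAPLN1. Within libraries of the double name style they were 0.053 for TRAM1, 0.0099 for NFATC1, 0.073 for TTN, -0.066 for EGLN3, 0.11 for CTSK, 0.025 for NT5E, 0.10 for MDM2, -1.14 for IGFBP5 and 0.16 for SDHD. Within libraries of the single name style they were -0.35 for JCHAIN, -0.12 for XBP1, -0.15 for S100A8, 0.25 for HAPLN1, 0.032 for SOX9 and 0.087 for ADAMTS4. With long from 180 days JCHAIN was at -0.022, S100A8 at -0.34, PPARG at -0.041 and IGFBP4 at 0.023. With short to 60 and long from 90 days SOX9 was at 0.060, PLIN4 at 0.34 and IGFBP4 at 0.031. With relapsed dogs censored 120 days or more after relapse added to the long group JCHAIN was at -0.042, HAPLN1 at 0.066 and MDM2 at 0.0050. Without intervals of 0 days PLIN4 was at 0.17. With the GS-1 score as a term JCHAIN was at -0.062 and XBP1 at -0.014, and with sample quality weights at -0.022 and -0.021. HAPLN1 was at 0.14 by edgeR and 0.15 by DESeq2. The part that depth has in the width of the intervals was not tested.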
